A study of Mus musculus with 24 samples.

Results

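The genes described here carry the growth signal of insulin-like growth factor 1 (IGF1) through the kinases AKT and mTOR to protein synthesis. They were chosen by name: the platform symbols Igf1, Igf1r, Igfbp5, Irs1, Akt1, Akt2, Mtor (formerly Frap1), Rps6kb1 and Eif4ebp1, 9 genes in all. On the array, 10 of 26423 probes carried these symbols and covered 8 of the 9 genes (of 17742 genes named on the array), with 2 probes each for Igf1 and Rps6kb1. Akt2, the AKT isoform best known for its role in insulin-stimulated glucose uptake, had no probe under its symbol and was not analysed here.

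IGF1 reaches muscle from the blood and is also made locally. It binds the receptor tyrosine kinase IGF1R, which phosphorylates the docking protein IRS1. PI 3-kinase is recruited there and activates AKT, and AKT in turn relieves the brake that the TSC complex holds on mTOR complex 1. mTOR complex 1 phosphorylates the kinase S6K1, encoded by Rps6kb1, and the translation repressor 4E-BP1, encoded by Eif4ebp1. Most of this control is by phosphorylation, which an mRNA array does not measure.

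The tibialis anterior lies at the front of the shin and is made mostly of fast fibres. Its RNA was hybridised to 1-colour Cy5 arrays from 8 mice aged 6 weeks on a C57BL6/J;129S1/SvImJ background. The 4 controls were Myf6 cre/+; Hira flox/+, and the 4 mice labelled Hira CKO were Myf6 cre/+; Hira flox/-. All animals thus carried 1 Myf6 cre allele, which drives recombination in muscle fibres, and 1 floxed Hira allele. In the Hira CKO animals the label writes the other Hira allele as deleted (-) and in the controls as wild type (+). By the labels, that allele is where the genotypes of the groups differ. Each animal was hybridised on 3 arrays, which were averaged, and the animal was the replicate.

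The Hira probe did not separate the groups. Its normalized intensity was 467 to 569 for the controls and 524 to 614 for the Hira CKO animals. They differed by 0.17 log2 (SE 0.087, limma adjusted p 0.193), and the position of the probe in the gene is unknown here, so it cannot check the genotypes and all directions rest on the labels. Markers of muscle fibres were bright: 6 of 10 listed genes had a probe, and their summed intensity was 1176269 to 1355276 in controls and 1083409 to 1159718 in Hira CKO. Of these 6, Acta1 (−0.55 log2) and Ckm (−0.28 log2) were lower in Hira CKO. Values of whole muscle do not tell fewer cells of a type from less RNA per cell.

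Of the 10 probes, that of Akt1 alone passed the threshold, a limma p adjusted over all 26423 probes under 0.05. It was higher in Hira CKO. Among all probes 20.6% were called, 10.5% higher and 10% lower, so 1 call in 10 probes is no more than the background. None of the 10 was called lower by limma, and 0 were lower at an unadjusted p under 0.05, a level that 2 of the 10 and 35.1% of all probes reached. The groups did not overlap for 2 of the 10, Akt1 and the brighter Rps6kb1 probe, against 24.8% of all probes. Differences between the groups were positive at 8 probes and negative at 2, with a median of 0.15 log2 against 0.01 log2 over all probes.

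**Figure D1:**
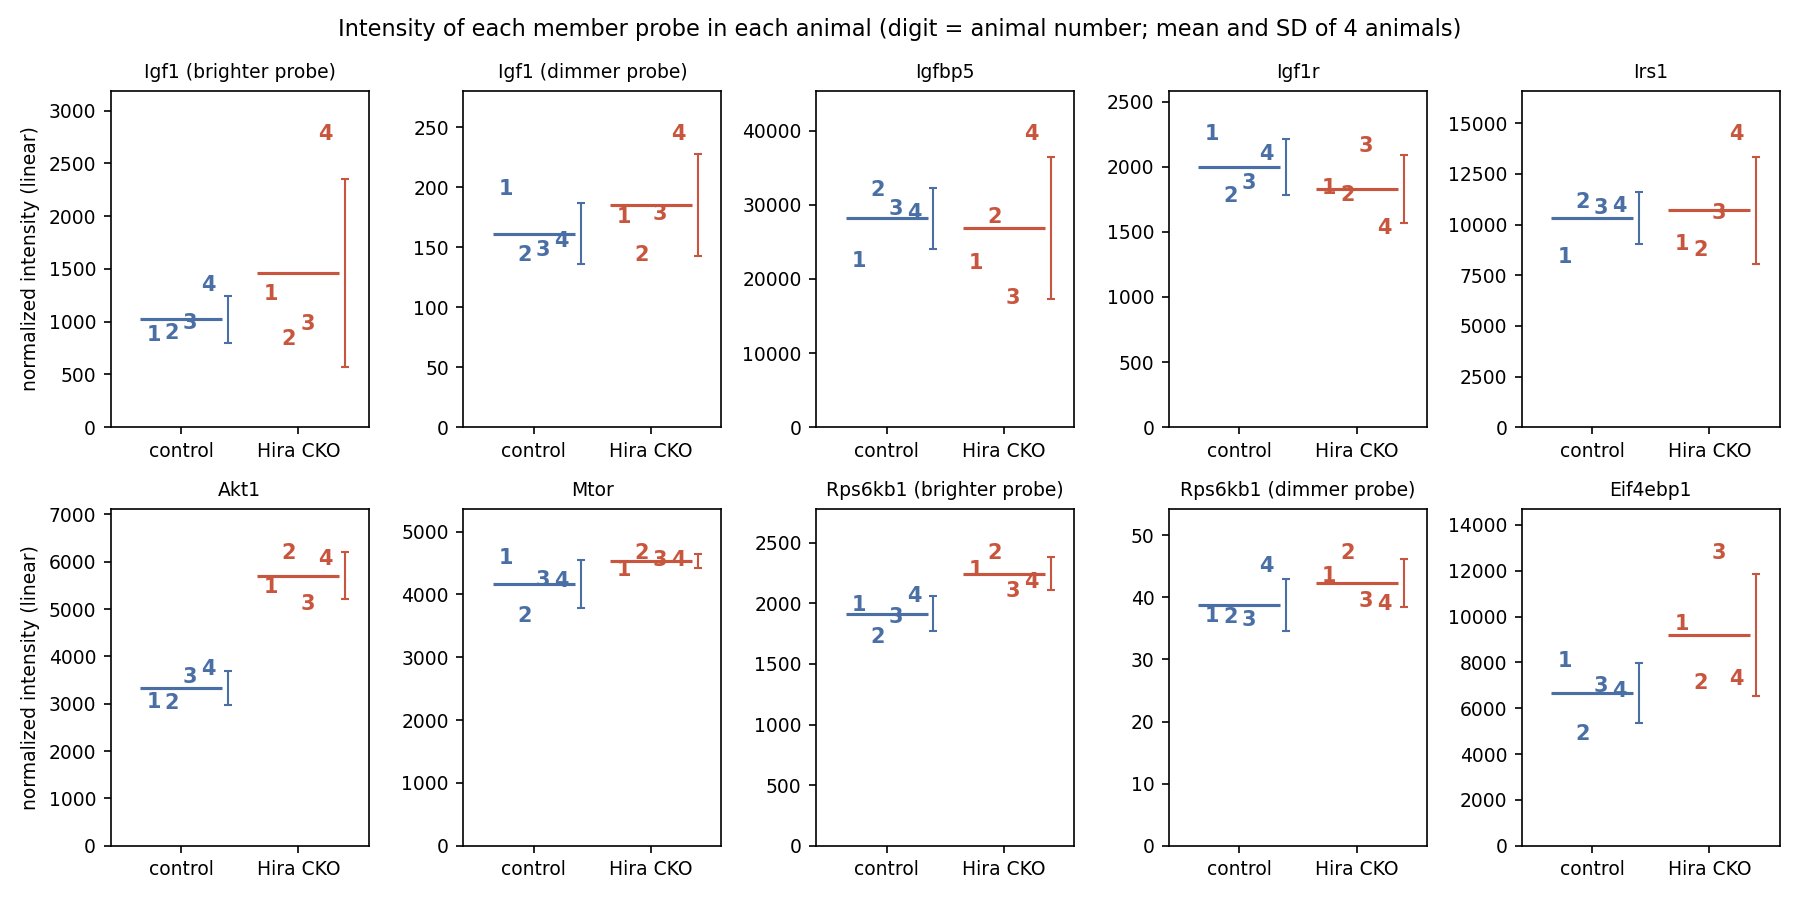
Normalized intensity (vertical axis, linear, from 0) of each of the 10 probes in the 4 control and 4 Hira CKO animals. Each digit is the mean of 3 arrays of the animal with that number, the horizontal line is the group mean and the bar beside it the SD of 4 animals. The Akt1 values of 3023 to 3728 in controls lie wholly below those of 5113 to 6186 in Hira CKO, and Hira CKO animal 4 stands highest for both Igf1 probes, Igfbp5 and Irs1.

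**Figure D2:**
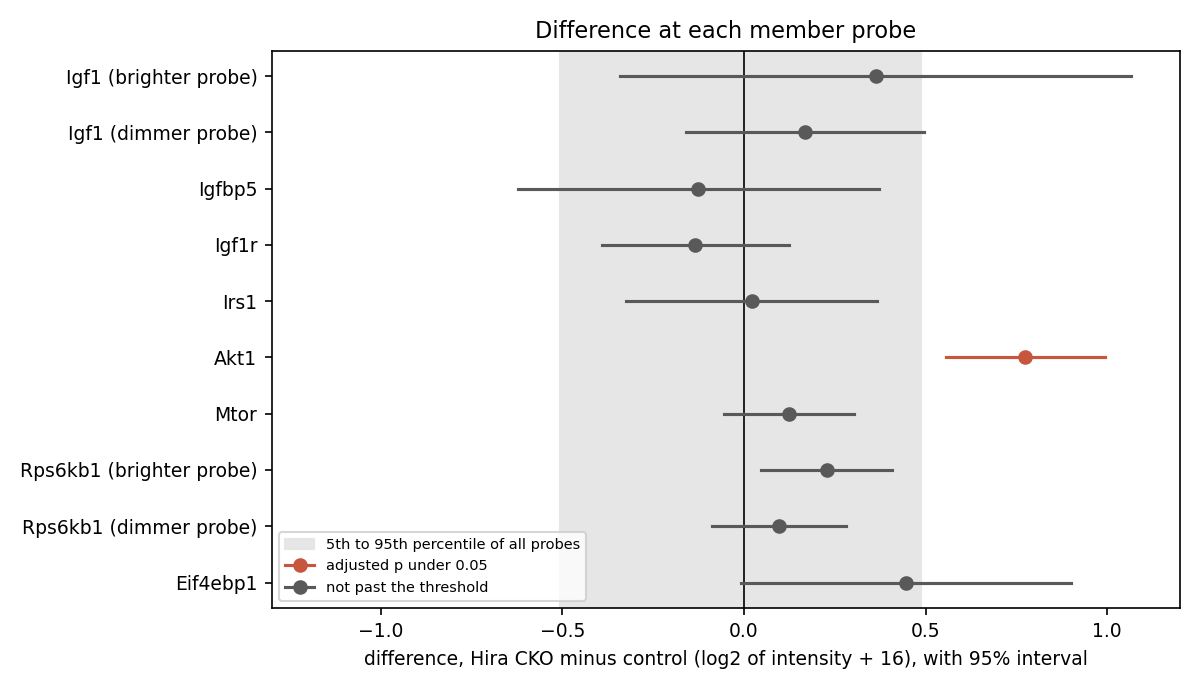
Difference between the groups at each of the 10 probes (horizontal axis, log2 of intensity + 16, Hira CKO minus control) with its 95% interval from limma. Grey shading spans the 5th to 95th percentile of all 26423 probes, −0.51 to 0.49 log2. Akt1, at 0.78 log2, lies outside the shading, and its interval of 0.56 to 0.99 log2 does as well.

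AKT1 is the most widely expressed of the AKT kinases. Its probe read 3033, 3023, 3566 and 3728 in control animals 1 to 4. In Hira CKO animals 1 to 4 it read 5468, 6186, 5113 and 6066. Every Hira CKO animal was above every control animal, with 3728 and 5113 the nearest values. The means were 3338 ± 363 in controls and 5708 ± 506 in Hira CKO (SD, n = 4), a ratio of 1.71. On the log2 scale the difference was 0.78 (SE 0.098, 95% interval 0.56 to 0.99, limma adjusted p 0.00061). Over the 70 ways of assigning animals to groups, the exact permutation p (two-sided) was 0.0286, the smallest this design can give.

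The Akt1 values of single arrays showed the same separation. The 12 control arrays read from 2739 to 4032 and the 12 Hira CKO arrays from 4939 to 6739. These are repeat hybridisations of the same animals, so they add no replicates to the comparison. The SD between arrays of an animal was 0.10 log2, less than the SD of 0.16 log2 between control animals and of 0.13 log2 between Hira CKO animals. Akt1 passed in each of 25 alternative analyses, with a difference between 0.73 and 0.83 log2. Those at adjusted p thresholds of 0.01 and 0.10 changed only the threshold of the main fit. All of them used the 1 Akt1 probe of the array, so they cannot tell whether other parts of the transcript differed alike. The 100 probes next to the Akt1 probe in file order had 22% called and a median difference of −0.03 log2.

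Some markers of other cells in muscle differed between the same groups. Of all named genes 11% were higher and 10.2% lower. Of 10 endothelial markers 1 was higher and 5 were lower in Hira CKO, with a median of −0.27 log2. Their summed intensity was 64952 to 81682 in controls against 49761 to 55713 in Hira CKO. The brightest of them, Egfl7, weighs most in this sum, with means of 30882 in controls and 19234 in Hira CKO. Of 7 measured lymphocyte markers 3 were higher and 4 did not pass, with a summed intensity of 2312 to 3678 in controls and 3546 to 5143 in Hira CKO. The brightest of them, Cd79a, weighs most in this sum, with means of 1245 in controls and 2128 in Hira CKO. It did not pass (limma adjusted p 0.156), its groups overlapped, and its SD between arrays of an animal was 0.94 log2. In the other lists, 1 of 9 measured fibroblast markers and 1 of 6 smooth muscle and pericyte markers were lower. Among 7 measured satellite cell markers 1 was higher. Of 5 measured Schwann cell and 6 adipocyte markers none passed, and macrophage markers are given further below. The part of any of these cells in the Akt1 difference was not tested.

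Sequences upstream of Akt1 are shown because it is the member that passed, and that of Igf1 is shown beside them as the ligand at the head of the pathway. They are from RefSeq on GRCm38.p6, 250 bases before to 50 after the annotated start, 5′ to 3′ on the strand of the gene, with each CG dinucleotide in capitals.
Akt1, chr12:112674227-112674526, minus strand: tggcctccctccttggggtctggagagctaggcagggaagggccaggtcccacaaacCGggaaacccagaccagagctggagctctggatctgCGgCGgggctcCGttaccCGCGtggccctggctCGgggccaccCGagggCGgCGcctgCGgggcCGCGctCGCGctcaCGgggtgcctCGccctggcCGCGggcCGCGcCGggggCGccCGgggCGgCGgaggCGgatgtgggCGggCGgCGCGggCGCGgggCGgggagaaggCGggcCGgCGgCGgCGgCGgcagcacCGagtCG
Akt1, chr12:112674835-112675134, minus strand: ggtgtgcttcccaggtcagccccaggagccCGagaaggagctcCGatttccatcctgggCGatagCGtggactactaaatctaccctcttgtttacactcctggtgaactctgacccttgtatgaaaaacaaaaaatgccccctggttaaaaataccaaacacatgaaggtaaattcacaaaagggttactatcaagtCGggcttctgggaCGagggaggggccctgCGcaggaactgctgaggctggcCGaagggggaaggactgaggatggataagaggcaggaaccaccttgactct
Igf1, chr10:87860861-87861160, plus strand: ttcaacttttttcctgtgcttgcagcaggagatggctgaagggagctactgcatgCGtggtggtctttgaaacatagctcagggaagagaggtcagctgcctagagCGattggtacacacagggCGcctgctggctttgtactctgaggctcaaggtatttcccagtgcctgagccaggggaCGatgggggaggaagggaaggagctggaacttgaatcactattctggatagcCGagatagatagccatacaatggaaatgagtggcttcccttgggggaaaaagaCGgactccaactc

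The annotation gives Akt1 2 starts of unlike composition. The first window shown holds 42 CG dinucleotides and 79.7% G and C, and 97.4% of the 32851 starts in the table have at most that many CG dinucleotides. The other holds 8, and the Igf1 window holds 6, against a median of 7. Which Akt1 start was in use cannot be read from the array. Of the 8 genes with a probe, 7 had an entry in the promoter table. Their windows held between 6 and 48 CG dinucleotides, the most in Igf1r, which did not pass. A relation of CG content to the differences between the groups was not tested.

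The letters GTAAACA, the core recognised by forkhead factors such as the FOXO proteins that AKT phosphorylates, were searched on both strands. They were found in 1 of the 8 windows of these 7 genes, the second Akt1 window, on the opposite strand at bases 90 to 96. In all, 3.65% of starts hold them. CACGTG, the E-box bound by TFEB and related factors, was found in the Irs1 window and in 7.15% of all starts.

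Igf1 itself did not pass, and 1 animal stood far above the rest. Its brighter probe read 869, 890, 983 and 1346 in control animals 1 to 4. It read 1266, 832, 982 and 2774 in Hira CKO animals 1 to 4. The groups overlapped, and Hira CKO animal 4 read more than every other animal on each of its 3 arrays (3597, 2552 and 2174). With means of 1022 ± 222 and 1463 ± 892 (SD, n = 4), the difference was 0.36 log2 (SE 0.316, 95% interval −0.34 to 1.07, limma adjusted p 0.45). Without Hira CKO animal 4 it was 0.01 log2 (limma adjusted p 0.976).

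The dimmer Igf1 probe, brighter than 31.4% of all probes, also had its highest value in that animal. Control animals 1 to 4 read 199, 144, 148 and 155, and Hira CKO animals 1 to 4 read 176, 144, 177 and 244. Its difference was 0.17 log2 (SE 0.147, 95% interval −0.16 to 0.50, limma adjusted p 0.453). The difference at the brighter probe exceeded that at the dimmer one by 0.19 log2, with an exact two-sided permutation p of 0.543, also 0.543 adjusted over the 2 probe pairs tested. Both intervals leave room for changes of either sign.

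Igfbp5 encodes a binding protein that holds IGFs in the matrix and around cells and is abundant in skeletal muscle. Its probe was brighter than 98.2% of all probes. Control animals 1 to 4 read 22367, 31988, 29481 and 28852. The Hira CKO animals read 22164, 28327, 17413 and 39482, so both the lowest and the highest value lay in that group. The difference was −0.13 log2 (SE 0.223, 95% interval −0.62 to 0.37, limma adjusted p 0.729).

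The receptor and its docking protein did not pass either. Igf1r read 2249, 1772, 1875 and 2100 in control animals 1 to 4 and 1838, 1783, 2161 and 1529 in Hira CKO animals 1 to 4. The groups overlapped, and the difference was −0.13 log2 (SE 0.116, 95% interval −0.39 to 0.12, limma adjusted p 0.447). For Irs1 the control animals read 8419, 11102, 10806 and 10936 and the Hira CKO animals 9033, 8750, 10563 and 14446. Its difference was 0.02 log2 (SE 0.156, 95% interval −0.33 to 0.37, limma adjusted p 0.941), and its sign turned without control animal 1 (−0.07 log2) or without Hira CKO animal 4 (−0.13 log2).

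Mtor, the kinase of both mTOR complexes, read 4579, 3651, 4235 and 4206 in control animals 1 to 4. Its Hira CKO values were 4390, 4661, 4552 and 4549, close to each other and inside or just above the control range. The difference was 0.12 log2 (SE 0.080, 95% interval −0.05 to 0.30, limma adjusted p 0.299). This interval excludes a difference of the size seen for Akt1.

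Neither substrate of mTOR complex 1 passed. At the brighter Rps6kb1 probe control animals 1 to 4 read 1983, 1724, 1885 and 2059, and Hira CKO animals 1 to 4 read 2278, 2417, 2103 and 2177. The groups did not overlap, and the nearest values were 2059 and 2103. They differed by 0.23 log2 (SE 0.081, 95% interval 0.05 to 0.41), for an exact permutation p of 0.0286 and a limma adjusted p of 0.0739. It passed with all 24 arrays in the fit and the animal as a random block (limma adjusted p 0.016) and with animal weights (limma adjusted p 0.0368). These fits called 7254 and 6778 of all probes, against 5432 with animal means. The random-block fit takes a correlation between arrays of an animal that is shared by all probes.

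The dimmer Rps6kb1 probe was brighter than only 4.2% of all probes. It read 37.0, 36.8, 36.3 and 45.1 in control animals 1 to 4 and 43.5, 47.2, 39.4 and 39.0 in Hira CKO animals 1 to 4. At this level the pseudocount of 16 compresses a fold, and the difference was 0.10 log2 (SE 0.083, 95% interval −0.09 to 0.28, limma adjusted p 0.438). The brighter probe exceeded it by 0.13 log2 in its difference, with an exact two-sided permutation p of 0.0286 and 0.0571 adjusted over the 2 probe pairs.

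Eif4ebp1 read 8056, 4890, 6974 and 6735 in control animals 1 to 4 and 9672, 7102, 12780 and 7258 in Hira CKO animals 1 to 4. Hira CKO animals 1 and 3 were above every control, and animals 2 and 4 fell among them. Its means were 6664 ± 1315 and 9203 ± 2659 (SD, n = 4). The difference was 0.45 log2 (SE 0.204, 95% interval −0.01 to 0.90, limma adjusted p 0.149, exact permutation p 0.143). It passed with all 24 arrays and the animal as a random block (limma adjusted p 0.0235). That fit uses the shared correlation, while for Eif4ebp1 the SD was 0.13 log2 between arrays of an animal. Between animals it was 0.30 log2 in controls and 0.40 log2 in Hira CKO, so the pass is to be read with caution.

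Within the groups, animals differed most in Igf1, Igfbp5 and Eif4ebp1. For the brighter Igf1 probe the SD between animals was 0.29 log2 in controls and 0.75 log2 in Hira CKO, and for Igfbp5 it was 0.22 and 0.51 log2. For Mtor it was 0.13 and 0.04 log2. The SD between arrays of an animal, pooled over all 8 animals, was 0.17 log2 at the brighter Igf1 probe and 0.11 log2 for Igfbp5. In Hira CKO animal 4 arrays 1 to 3 read 3597, 2552 and 2174 at the brighter Igf1 probe and 18333, 13469 and 11536 for Irs1. For Igfbp5 they read 39835, 40392 and 38219.

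**Figure D3:**
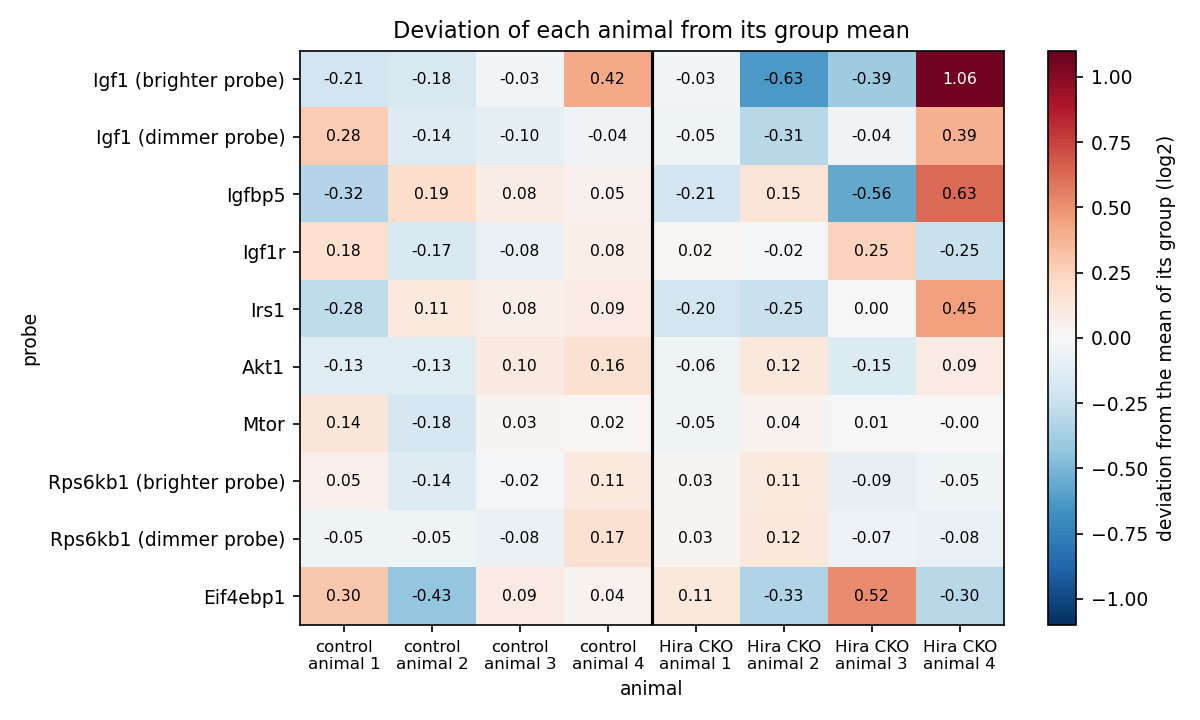
Deviation of each animal (columns) from the mean of its own group, in log2, for each of the 10 probes (rows). Red is above and blue below the group mean, and the vertical line parts controls from Hira CKO. In Hira CKO animal 4 the brighter Igf1 probe was 1.06 log2, Igfbp5 0.63 log2 and Irs1 0.45 log2 above the group mean, while Igf1r and Eif4ebp1 were 0.25 and 0.30 log2 below it.

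Among 45 pairs of probes, deviations from the group means were compared over the 8 animals. The median Pearson r was 0.07, with 24 pairs above 0. Igfbp5 and Igf1r ran furthest in opposite directions, with r = −0.93 and Spearman rho = −0.95. Reordering the animals within groups gave an exact permutation p of 0.00174 for r and 0.00347 for rho, the former 0.0781 after Benjamini-Hochberg adjustment over the 45 pairs, which was the lowest adjusted value. Without the 2 animals farthest from the Igfbp5 median r was −0.80. Igf1r and Eif4ebp1 deviated together, with r = 0.86 (exact permutation p = 0.0139), rho = 0.79 (exact permutation p = 0.0521), an adjusted p of 0.313 and r = 0.76 without 2 animals.

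The 2 Igf1 probes gave r = 0.69 (exact permutation p = 0.149), rho = 0.40 (exact permutation p = 0.42) and an adjusted p of 0.653. Without the 2 animals farthest from the median r was −0.17, so the relation rests on those animals. The 2 Rps6kb1 probes gave r = 0.77 (exact permutation p = 0.066), rho = 0.62 (exact permutation p = 0.151), an adjusted p of 0.609 and r = 0.81 without 2 animals. None of the 45 pairs passed after adjustment.

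The probes whose deviations were most like those of Akt1 over the 8 animals were, among 11300 searched, those of Sec62 (r = 0.99), a protein of the ER translocon, Tcf12 (r = 0.98), an E-protein transcription factor, and Pum2 (r = 0.97), an RNA-binding repressor. They are the highest of many values over few animals and are given as a description. Sec62 was higher in Hira CKO by 0.43 log2 (limma adjusted p 0.0193), while the differences of Tcf12 (0.24 log2) and Pum2 (−0.35 log2) did not pass.

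The rest of the pathway was read from 6 lists of 107 other genes, of which 102 had a probe, each gene at its brightest. Of these, 12 were higher and 10 lower in Hira CKO, 21.6% against 21.2% of all 17742 named genes (11% higher and 10.2% lower). Their median difference was 0.02 log2 against 0.01 log2 over all genes. The number called in the lists was thus at the background. Of the 22 calls, 12 held in all 8 analyses that left out 1 animal. Of the 80 genes not called at their brightest probe, 5 had another probe that passed (Ghr, Shc1, Pdpk1, Depdc5 and Eif4ebp2).

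**Figure D4:**
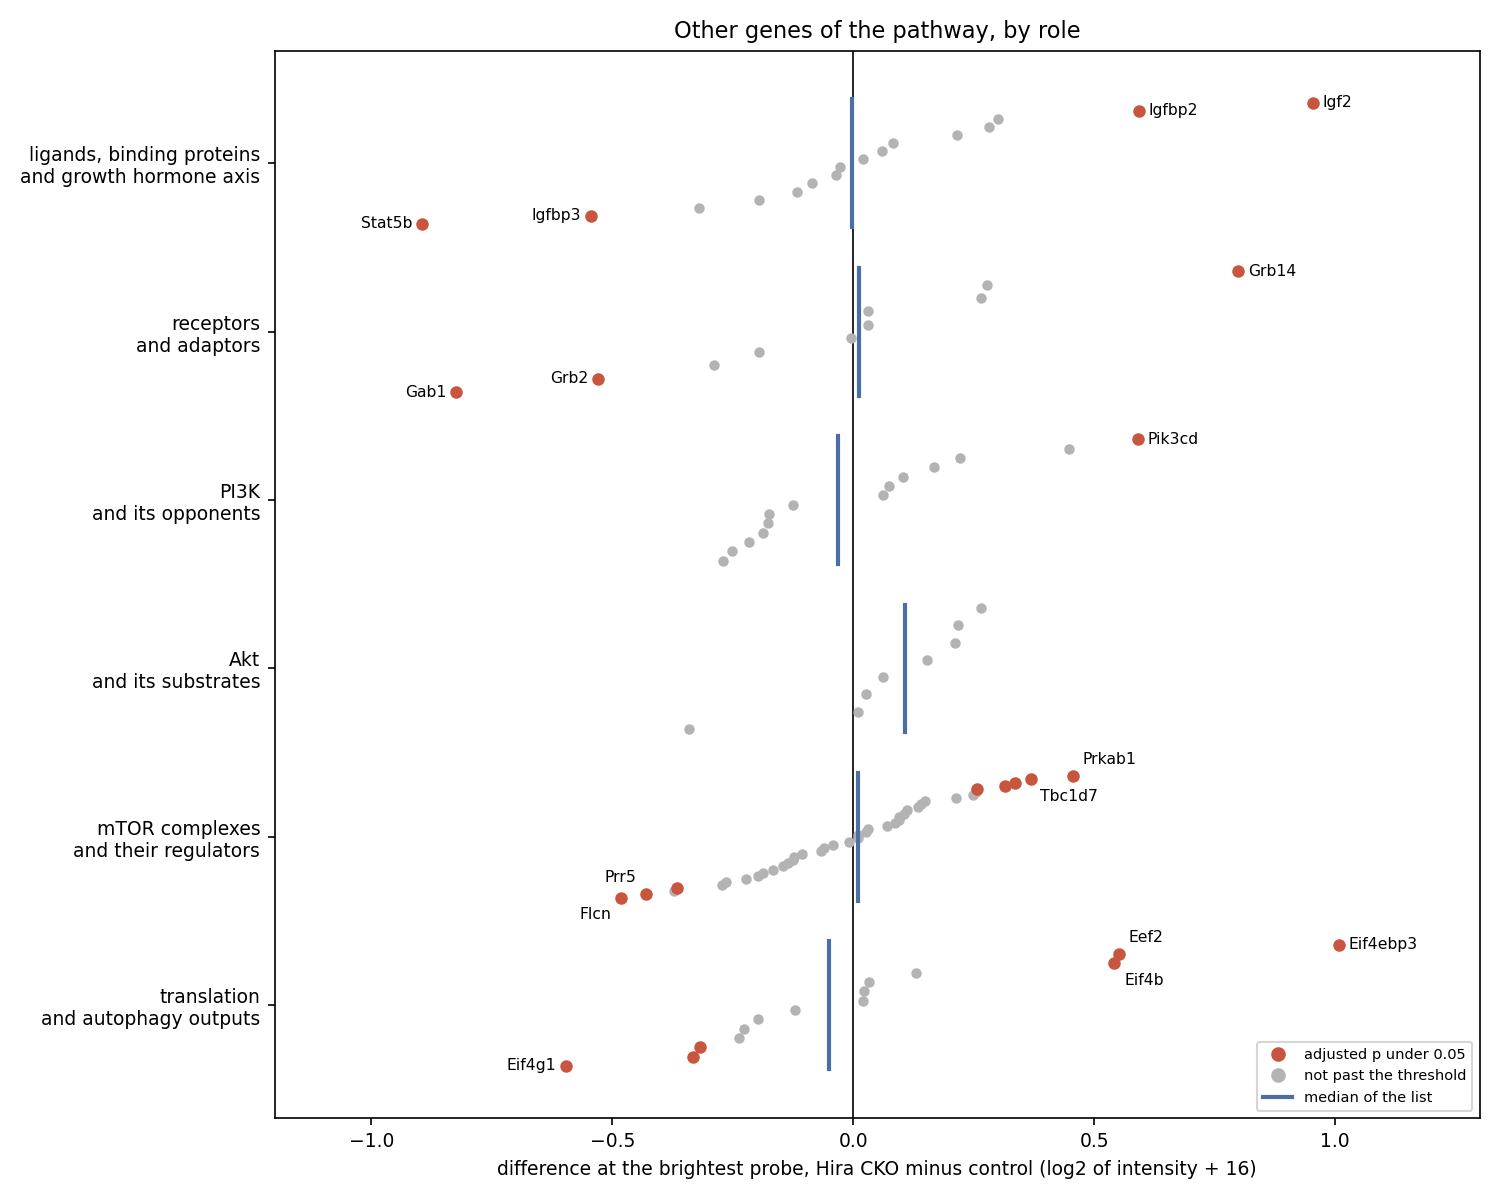
Difference between the groups (horizontal axis, log2 of intensity + 16, Hira CKO minus control) at the brightest probe of each of 102 other pathway genes, in 6 lists by role. Red points passed an adjusted p of 0.05, grey points did not, and the blue line is the median of the list. Medians lie between −0.05 and 0.11 log2, with genes called on both sides in 4 of the 6 lists: ligands, adaptors, mTOR complexes and translation.

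Among 16 genes of ligands, binding proteins and the growth hormone axis 2 were higher and 2 lower, 25% against 21.2% of all named genes. Igf2, the fetal growth factor that also signals through IGF1R, read 6548 to 8280 in controls and 9677 to 18428 in Hira CKO, a difference of 0.95 log2 (SE 0.171, limma adjusted p 0.00418). The binding protein gene Igfbp2 read 214 to 254 in controls and 323 to 406 in Hira CKO, higher by 0.59 log2 (SE 0.089, limma adjusted p 0.00155). For neither gene did the groups overlap, which adds little to a call and held for 24.8% of all probes. Stat5b, the transcription factor through which growth hormone acts on its target genes, read 3410 to 5146 in controls and 1912 to 2999 in Hira CKO, a difference of −0.89 log2 (SE 0.170, limma adjusted p 0.00563). Igfbp3 was lower by −0.54 log2 (limma adjusted p 0.0401), with overlapping groups and a call lost in 5 of 8 analyses that left out 1 animal. The growth hormone receptor gene Ghr (−0.09 log2 at its brightest probe, limma adjusted p 0.612, while its 2 other probes passed in opposite directions, at 0.31 and −0.60 log2) and Socs2, a feedback inhibitor induced by STAT5 (0.28 log2, limma adjusted p 0.371), did not pass.

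Of 10 receptors and adaptors 1 was higher and 2 were lower, 30% against 21.2% of all named genes. Grb14, an adaptor that inhibits the insulin receptor, read 2091 to 3058 in controls and 3480 to 5275 in Hira CKO (0.80 log2, SE 0.161, limma adjusted p 0.00731). Gab1, a docking protein, read 398 to 554 in controls and 226 to 321 in Hira CKO (−0.82 log2, SE 0.129, limma adjusted p 0.00196). Grb2, the adaptor that links receptors to the RAS pathway, read 6969 to 7999 in controls and 4765 to 5927 in Hira CKO (−0.53 log2, SE 0.087, limma adjusted p 0.00258). None of these 3 overlapped between the groups. They were named for their calls and large differences, so this adds no support, and 24.8% of all probes did not overlap. The insulin receptor gene Insr (−0.20 log2, limma adjusted p 0.323) and Irs2 (0.28 log2, limma adjusted p 0.357) did not pass.

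Of 14 measured genes of PI 3-kinase and its opponents, 1 passed at its brightest probe, 7.1% against 21.2% of all named genes. This was Pik3cd, a catalytic subunit best known from leukocytes. It was higher by 0.59 log2 (limma adjusted p 0.0376), with overlapping groups and a call lost in 5 of 8 analyses that left out 1 animal. Of the lymphocyte markers given above 3 of 7 passed, all higher, where 11% of all named genes were higher. Of 9 measured macrophage markers 1 was higher and 1 lower, with overlapping summed intensities of 9642 to 13558 in controls and 10340 to 15297 in Hira CKO. The part of these cells in the Pik3cd difference was not tested.

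Pdpk1, the kinase that phosphorylates AKT at the membrane, depended on the probe. Its brightest probe read 4806 to 5967 in controls and 3941 to 5253 in Hira CKO and did not pass (−0.22 log2, limma adjusted p 0.17). Another read 1289 to 1956 in controls and 231 to 397 in Hira CKO (−2.46 log2, SE 0.181, limma adjusted p 2.8e-05), and the remaining one differed by −0.30 log2 (limma adjusted p 0.0452). All 3 differences were negative, and their size for Pdpk1 is uncertain. It was named after its values were seen.

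Of 8 measured genes of Akt substrates limma called 0, against 21.2% of all named genes, and 1 had an unadjusted p under 0.05. The FOXO genes Foxo1, Foxo3 and Foxo4 differed by 0.21 log2 (95% interval −0.30 to 0.72), 0.03 log2 (−0.27 to 0.33) and 0.01 log2 (−0.79 to 0.81). Tbc1d4, which AKT phosphorylates in glucose uptake, differed by −0.34 log2 (95% interval −0.87 to 0.19). These intervals leave room for changes of either sign.

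Among 40 measured genes of the mTOR complexes and their regulators 5 were higher and 3 lower. Flcn, folliculin, which regulates the RAG GTPases at the lysosome, read 8072 to 10416 in controls and 6298 to 7151 in Hira CKO (−0.48 log2, SE 0.095, limma adjusted p 0.0066). Tbc1d7, a subunit of the TSC complex, was higher by 0.37 log2 (limma adjusted p 0.0217), and Prr5, a partner of mTOR complex 2, was lower by −0.43 log2 (limma adjusted p 0.0498). Rictor, the defining subunit of mTOR complex 2, named after its values were seen, read 490 to 652 in controls and 669 to 748 in Hira CKO and was higher by 0.31 log2 (limma adjusted p 0.0436). The calls of Tbc1d7, Prr5 and Rictor were lost in 3, 6 and 7 of 8 analyses that left out 1 animal. Tsc1 (0.25 log2), Tsc2 (−0.15 log2), Rheb (0.03 log2) and Rptor (−0.01 log2), which encodes the defining subunit of mTOR complex 1, did not pass. The groups did not overlap for Tsc1. This also held for Rraga, Tti1, Depdc5 and Castor2, not called at their brightest probes, and for 24.8% of all probes.

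The same list holds 6 measured subunit genes of AMPK, the energy sensor that restrains mTOR complex 1. Apart from Prkab1 they were named after their values were seen, so the number called among them, 3 higher and 1 lower, is a description. In the whole list of 40 genes 20% were called, against 21.2% of all named genes. The β1 subunit gene Prkab1 read 1363 to 1909 in controls and 2041 to 2473 in Hira CKO (0.46 log2, SE 0.109, limma adjusted p 0.0159). The catalytic subunit genes Prkaa1 and Prkaa2 were higher by 0.26 log2 (limma adjusted p 0.0225) and 0.34 log2 (limma adjusted p 0.0158). Prkab2, which encodes the β2 subunit prominent in skeletal muscle, was lower by −0.37 log2, at 23665 to 29923 in controls and 17763 to 22076 in Hira CKO (limma adjusted p 0.029). Prkag1 (−0.17 log2, limma adjusted p 0.27) and Prkag3 (−0.11 log2, limma adjusted p 0.778), which encode regulatory γ subunits, did not pass. Leaving out 1 animal ended the call of Prkaa1 in 3 of 8 analyses, of Prkaa2 in 1 (without Hira CKO animal 2) and of Prkab2 in 5.

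Of 14 measured genes of translation and autophagy outputs 3 were higher and 3 lower. This was 42.9% of the list, against 21.2% of all named genes, and the list was not tested as a set. The calls of Eef2k (−0.32 log2) and Ulk2 (−0.33 log2) were lost in 6 and 4 of 8 analyses that left out 1 animal. Eif4ebp3, a relative of Eif4ebp1, read 1960 to 2765 in controls and 3134 to 6277 in Hira CKO (1.01 log2, SE 0.215, limma adjusted p 0.00969). Eef2, the factor that moves the ribosome along the mRNA, read 78651 to 95458 in controls and 107173 to 134665 in Hira CKO (0.55 log2, SE 0.096, limma adjusted p 0.00354). Eif4g1, the scaffold of the cap-binding complex, read 13865 to 17834 in controls and 9632 to 11300 in Hira CKO (−0.60 log2, SE 0.097, limma adjusted p 0.00248). The groups did not overlap for any of Eif4ebp3, Eef2 and Eif4g1. These were named for their calls and large differences, so this adds no support, and 24.8% of all probes did not overlap.

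For Eif4b, a cofactor of the translation helicase, the array gave opposite answers. Its brighter probe read 6308 to 8349 in controls and 8972 to 12012 in Hira CKO (0.54 log2, SE 0.120, limma adjusted p 0.0116). Its other probe read 3359 to 4675 in controls and 898 to 1448 in Hira CKO, a difference of −1.83 log2 that also passed. The direction of Eif4b is therefore uncertain, and it counts above only through its brighter probe. Eif4ebp2 (−0.20 log2 at its brightest probe, with a dimmer probe that passed at −0.53 log2), Eif4e (0.03 log2), Rps6kb2 (0.02 log2) and Ulk1 (0.02 log2) did not pass.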

How the data were processed

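The table holds a linear intensity for each probe on each array, deposited by the authors and normalized by them, as judged from the values: array medians were 431.5 to 433.5, all 24 arrays shared 1 highest value, and 50 values were at or below 0. Scanner, background method and software are not given in the sources used here. Slides and scan dates are unknown, so a batch could not be tested. Dim probes stayed in, as the table has no detection flags, and precision is limited by the number of animals and arrays.

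Probes were named from the platform annotation (20377 with 1 symbol, 0 with several, 6046 unnamed here), with symbols updated through RefSeq on GRCm38.p6: 18213 were current, 2126 were synonyms and 38 were kept as given. Values below 0 were set to 0, 16 was added and log2 taken, so fold changes of dim probes are understated. Each animal's 3 arrays were averaged, and limma 3.58.1 (lmFit and eBayes, under R 4.3.3) compared the groups, with Benjamini-Hochberg adjustment over all probes. Single values were also compared by exact permutation over 70 assignments. The fit was tested on simulated data. A planned comparison of Akt1 with Akt2 was not run, since Akt2 has no probe.

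The members and lists were chosen with earlier results of these data known. Named were all members, up to 4 called genes per list with the largest difference, the 3 genes most like a called member, Igf2 and Hira. Genes given as not having passed were chosen after their values were seen.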

Additional observations from a re-analysis of the deposited data

Results flagged for a closer look

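Dixon's ratio, the gap of the highest or lowest animal to its nearest neighbour over the range of the group on the log2 scale, was above the 95% critical value for 4 animals in 5 of 66 groups tested. Chance flags about 1 in 20 groups. Control animal 1 read 8419 for Irs1, below the other controls at 10806 to 11102 (ratio 0.913). The dimmer Rps6kb1 probe read 45.1 in control animal 4, above the others at 36.3 to 37.0 (ratio 0.871). Prr5 read 438 in control animal 4, below the others at 533 to 546 (ratio 0.90). Eif4g1 read 9632 in Hira CKO animal 1, below the others at 11056 to 11300 (ratio 0.872). Hira read 569 in control animal 1, above the others at 467 to 473 (ratio 0.938). Igf1 in Hira CKO animal 4 did not exceed the critical value at either probe.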

How the results depend on the processing

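Akt1 passed under all 25 alternatives, with limma adjusted p up to 0.00643, and no other member probe passed without any 1 animal. The alternatives at thresholds of 0.01 and 0.10 reuse the main fit, so for Akt1 their outcome was already given by its main adjusted p. The number of member probes called higher was 3 with all 24 arrays and the animal as a random block, and 2 with animal weights or at an adjusted p under 0.10. Calls over all 26423 probes rose in these settings as well, to 7254, 6778 and 7762, against 5432 in the main fit. Signs turned for Irs1 without control animal 1 (−0.07 log2), without Hira CKO animal 4 (−0.13, with 0.10 the highest when 1 animal was left out), with array 3 of each animal alone (−0.19) and with animal weights (−0.11). Igfbp5 turned to 0.061 log2 without Hira CKO animal 3 (−0.33 was the lowest without 1 animal), and the dimmer Rps6kb1 probe to −0.11 log2 with array 3 alone. That probe was not tested when the lowest 30% of probes were left out.

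Over all probes, leaving out 1 animal gave 3680 to 5133 calls against 5432, with 1841 (without Hira CKO animal 1) to 2634 higher against 2783 and 1817 to 2499 lower against 2649. With array 1 of each animal alone there were 3191 calls (1522 higher, 1669 lower), with array 2 alone 2848 (1269 and 1579) and with array 3 alone 3124 (1577 and 1547). At an adjusted p under 0.01 there were 2409 (1113 and 1296). Of the other pathway genes, 7 (without Hira CKO animal 2) to 14 were higher and 5 (without Hira CKO animal 3) to 9 lower when 1 animal was left out, with 6 lower without control animal 3. Array 1 alone gave 6 lower, array 2 alone 5 higher, array 3 alone 5 lower, and an adjusted p under 0.01 left 5 and 5. Fewer arrays or a stricter threshold were used in each of these. With the probe of smallest p in place of the brightest, 26.5% of pathway genes were called against 23.4% of all named genes.

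Calls of 10 pathway genes were lost without 1 animal: Igfbp3 (control animals 3 and 4, Hira CKO animals 1, 2 and 3; adjusted p up to 0.102), Pik3cd (control animals 2, 3 and 4, Hira CKO animals 1 and 2; up to 0.0994), Prr5 (each but control animal 4 and Hira CKO animal 4; up to 0.118), Tbc1d7 (control animal 2, Hira CKO animals 1 and 2; up to 0.0625), Prkaa1 (the same 3; up to 0.0599), Prkaa2 (Hira CKO animal 2; 0.0507), Prkab2 (control animals 3 and 4, Hira CKO animals 1, 3 and 4; up to 0.0808), Rictor (each but control animal 1; up to 0.117), Eef2k (each but control animal 3 and Hira CKO animal 2; up to 0.087) and Ulk2 (control animals 3 and 4, Hira CKO animals 3 and 4; up to 0.0671).

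The labels do not say whether animals of the same number were paired. Deviations of same-numbered animals correlated at 0.30, 0.09, −0.06 and 0.07 across probes. Animals of different numbers were not compared in this way, so these values cannot settle it. With the number as a replicate block 4925 probes were called, Akt1 kept its call (adjusted p 0.00326) and no other member probe passed.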
